A study of Mus musculus with 6 samples.

Results

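Mesothelin (Msln), Muc16, Upk3b, Lrrn4 and C3 were followed across 6 mouse fallopian tube organoid cultures. These 5 genes were picked with their levels on the same arrays in view, as genes known from mesothelium and from ovarian and tubal cancer, so their differences between cultures are a description with no test. Among 34566 named probes for 23787 genes, 5 probes belonged to 4 of the 5 genes, and no probe matched Muc16 through RefSeq. Muc16 was therefore not analysed here. Total RNA was measured on 6 one-colour Agilent arrays, 1 array for each culture. The organoids are cysts of oviduct epithelium from female mice, grown in a serum-free medium with EGF, Noggin, R-spondin1, Jagged-1, CHIR-99021 and Y27632. Tumour-derived Pik3ca/Trp53 came from a subcutaneous tumour labelled adenocarcinoma and carried Pik3caH1047R, which keeps PI3-kinase signalling on, with Trp53 loss. Pik3ca/Trp53 was the same genotype before inoculation. Tumour-derived Apc/Trp53 came from a subcutaneous lesion labelled cyst and carried Apc580D, an allele of the Wnt antagonist Apc, with Trp53 loss. Apc/Trp53 was its genotype before inoculation. Trp53 loss had only the loss of Trp53, which encodes the tumour suppressor p53. The control was grown from Trp53flox/flox mice with the empty vector pLKO.1. How Trp53 was removed, the age of the mice, the host of the grafts and the number of animals behind a culture are not stated in the labels.

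Mesothelin is a glycoprotein held on the cell surface by a lipid anchor. It is made as a precursor that furin-type proteases cut, and it binds the transmembrane mucin encoded by Muc16, whose shed human form is the ovarian cancer serum marker. It is abundant on the mesothelium that lines the body cavities and on many serous carcinomas. Upk3b encodes a uroplakin, a membrane protein family first known from the bladder, and Upk3b and the leucine-rich repeat gene Lrrn4 mark mesothelial cells. C3 encodes the component on which the complement pathways meet, which is made by the liver and by many epithelia.

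Levels are given as log2 of the processed signal minus the 75th percentile of the array, so that 0 is the 75th percentile. With 1 array a culture no difference has a replicate check, and precision is limited by the number of arrays. Of 56605 probes, 45.4% to 51.0% were well above background on an array, and probes printed in 10 copies had a median SD between copies of 0.039 to 0.082 log2 units. Trp53 was at 0.89 in the control, at -3.57 in Apc/Trp53 and at -1.62 in tumour-derived Pik3ca/Trp53, and it was not well above background on the other 3 arrays. The Pik3ca probe was at -0.21 in tumour-derived Pik3ca/Trp53, 2.01 in Pik3ca/Trp53, 2.12 in tumour-derived Apc/Trp53, 0.77 in Apc/Trp53, 0.99 in Trp53 loss and 1.56 in the control, so it was lowest in a culture labelled with the Pik3ca allele. Where this probe lies relative to the allele's change is not given, and the part of its low level in the results below was not tested. The Apc probe was low, between -4.60 and -3.66, and not well above background in Pik3ca/Trp53 and Trp53 loss. In tumour-derived Apc/Trp53 it was at -3.66, against a background limit of -5.84 on that array. Tumour-derived Pik3ca/Trp53, though labelled with Trp53 loss, had Trp53 signal well above background, which its source culture did not. Apc/Trp53, also labelled with Trp53 loss, had such signal too, which tumour-derived Apc/Trp53 did not. The part of these Trp53 signals in the results below was likewise not tested. All arrays lay on 1 slide. Both tumour-derived cultures and the control lay in row 2, and the other 3 in row 1. Slide row and culture cannot be told apart in the comparisons of each tumour-derived culture with its source and of Trp53 loss with the control. The other 4 comparisons were made within a row but between slide columns. Column 4 held the control and Trp53 loss, column 2 both Pik3ca/Trp53 cultures and column 1 both Apc/Trp53 cultures. Slide column and genotype cannot be told apart in these 4 comparisons.

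The promoters of Upk3b and C3 are shown because these 2 genes and Msln were all lower in tumour-derived Apc/Trp53 than in its source. No promoter sequence of Msln was available. The choice rests on these levels, so nothing is read from the matches. The sequences are RefSeq promoters of GRCm38.p6, 250 bases before to 50 bases after the annotated start, read on the gene's strand. Upk3b lies on the plus strand at chr5:136038246-136038545 and C3 on the minus strand at chr17:57228087-57228386. Capitals mark matches, on either strand, to CATTCC, the core of TEAD factor sites, and to a loose form of NF-kB sites, read as 3 G bases, 5 bases of any kind and 2 C bases.
Upk3b: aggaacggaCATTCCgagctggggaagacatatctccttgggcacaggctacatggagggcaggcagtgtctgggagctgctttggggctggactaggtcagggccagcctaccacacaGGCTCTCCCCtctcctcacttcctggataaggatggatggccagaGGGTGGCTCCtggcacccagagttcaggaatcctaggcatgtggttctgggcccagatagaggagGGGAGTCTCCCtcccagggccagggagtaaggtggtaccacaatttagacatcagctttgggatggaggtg
C3: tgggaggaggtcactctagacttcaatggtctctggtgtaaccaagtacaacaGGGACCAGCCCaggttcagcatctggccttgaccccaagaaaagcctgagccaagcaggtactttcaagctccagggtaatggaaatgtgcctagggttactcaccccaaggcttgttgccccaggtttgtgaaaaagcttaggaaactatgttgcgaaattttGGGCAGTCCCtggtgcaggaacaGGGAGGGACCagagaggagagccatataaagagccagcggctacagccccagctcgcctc
The Upk3b promoter held 1 TEAD match, with its first base at position -241 from the start, and 4 NF-kB matches. Those at -21 and -20 overlap, and the others begin at -131 and -86. The C3 promoter held 5 NF-kB matches. Those beginning at -197 and -196 overlap, 1 stretch at -33 reads as a match on both strands, and the last begins at -10. Of 32544 mouse promoters in the same table, 14.6% held CATTCC and 51.0% held the NF-kB letters. These shares count promoters with at least 1 match and give no background for the number of matches. Neither of these 2 promoters held CTTTGAT, the core of TCF sites, found in 3.73% of promoters, or GAAA, 2 bases of any kind and GAAA, an interferon response element form found in 3.45%. A match is a run of letters and no measured site.

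The Msln probe was well above background on all 6 arrays. The level was 5.67 in tumour-derived Pik3ca/Trp53, 3.84 in Pik3ca/Trp53, 1.72 in tumour-derived Apc/Trp53, 4.17 in Apc/Trp53, 5.0 in Trp53 loss and 5.81 in the control. The unscaled intensities were 25236, 6147, 1829, 9114, 15201 and 25474 in the same order. The control and tumour-derived Pik3ca/Trp53 stood at the top and differed by 0.14, less than the 0.20 that the scanner software's own spot error (10% a spot) allows for a difference. That error covers the spot, not the culture. Tumour-derived Apc/Trp53 was lowest, 2.12 below the next array. The 6 levels spanned 4.09 log2 units, or 17.0-fold. Of the 18007 named probes above background on all arrays, 97.9% spanned less, and their median span was 0.92. Msln was picked with these levels in view, so nothing is read from its place among them.

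The Upk3b probe was well above background on 4 arrays. Its level was -3.33 in tumour-derived Pik3ca/Trp53, -2.20 in Apc/Trp53, -0.50 in Trp53 loss and -0.66 in the control. In Pik3ca/Trp53 and in tumour-derived Apc/Trp53 it was not well above background. Measured levels there were -5.04 and -6.67, under the background limits of -4.45 and -5.84, so only a bound can be given. Trp53 loss and the control differed by 0.15, less than the spot error of 0.21. Apc/Trp53 lay 1.54 below the control, and tumour-derived Pik3ca/Trp53 1.13 below Apc/Trp53. The array order of Upk3b was thus unlike that of Msln at the top, where tumour-derived Pik3ca/Trp53 was close to the control for Msln and 6.38-fold below it for Upk3b.

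C3 was read by 2 probes that ordered the arrays in nearly the same way. The first gave 8.34 in tumour-derived Pik3ca/Trp53, 8.62 in Pik3ca/Trp53, 6.11 in tumour-derived Apc/Trp53, 8.11 in Apc/Trp53, 8.53 in Trp53 loss and 8.09 in the control. The second gave 7.31, 7.83, 4.81, 6.95, 7.84 and 6.94 for the same cultures. Tumour-derived Apc/Trp53 was lowest on both, by 1.98 and 2.12 log2 units below the next array. The other 5 arrays lay within 0.52 log2 units of each other by the first probe and within 0.91 by the second. No spot was saturated.

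Lrrn4 was not well above background on any array, with measured values between -7.04 and -6.35. These values have no order. A count of Lrrn4 in the comparisons is therefore not possible, and 3 of the 5 genes could be compared.

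**Figure D1:**
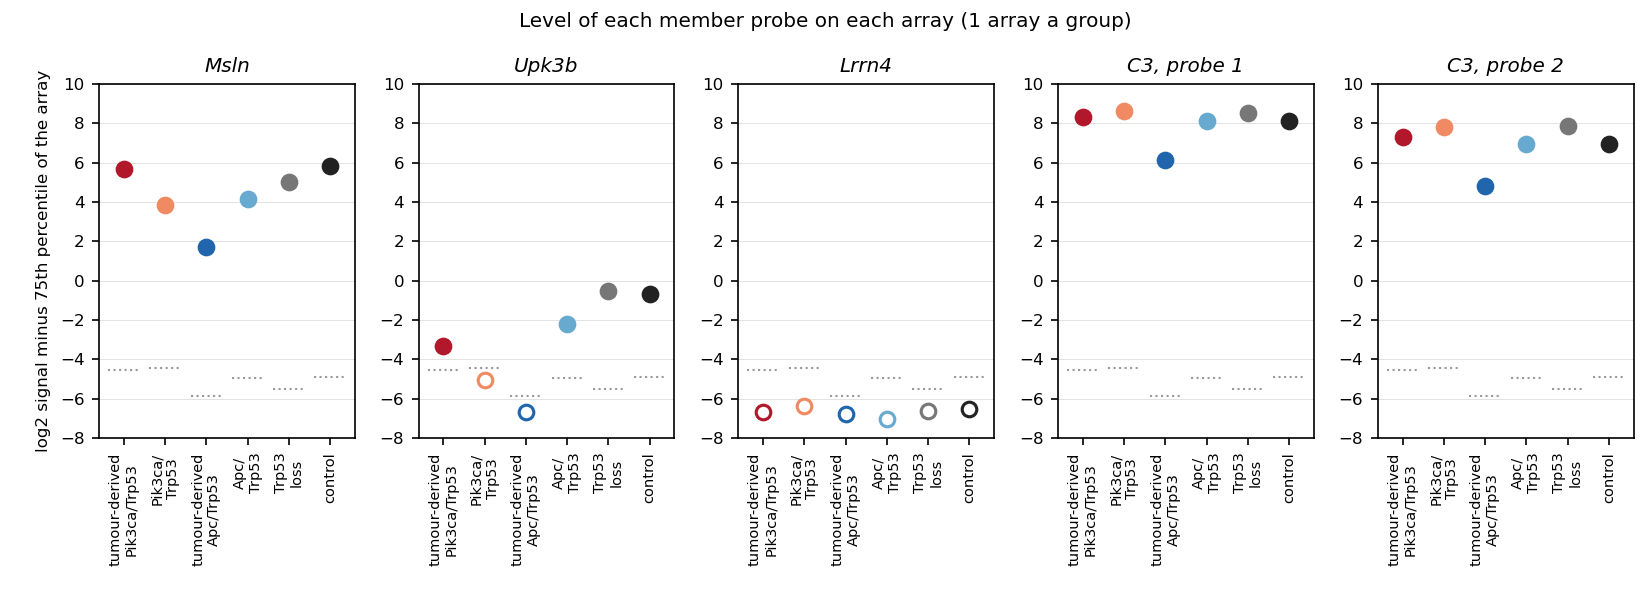
Level of each probe of the 4 measured genes on each of the 6 arrays, as log2 signal minus the array's 75th percentile. Filled points are well above background, open points are not, and dotted lines give each array's lowest level well above background. Tumour-derived Apc/Trp53 has the lowest Msln level, 1.72, and the lowest level of both C3 probes.

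The comparison of Trp53 loss with the control gave small differences. Msln was 1.75-fold lower in Trp53 loss (log2 difference -0.81), Upk3b 1.11-fold higher (0.15) and C3 1.59-fold higher (0.67, with an SD of 0.33 between its 2 probes). None of the 3 measured genes reached a log2 difference of 1, that is 2-fold. Over all 14365 genes measured, 13.4% were at least 2-fold apart, 6.02% higher and 7.38% lower, and the median difference was 0.05. Since these contrasts were in view when the genes were picked, their counts are not read against such shares.

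Pik3ca/Trp53 was lower than Trp53 loss for both surface markers. Msln was 2.24-fold lower (log2 difference -1.17), and Upk3b at least 15.4-fold lower. The Upk3b log2 difference was -4.53 with the dim signal as measured and -1.95 with the normexp background correction. C3 differed by 0.04. Of the 3 measured genes, 2 were at least 2-fold lower, where 8.02% of 14241 genes were (9.72% were at least 2-fold higher, 17.7% either way, and the median was 0.05). In Apc/Trp53 the same 2 genes were lower than in Trp53 loss by less. Msln was 1.78-fold lower (-0.83), Upk3b 3.24-fold lower (-1.69) and C3 1.58-fold lower (-0.66). This made 1 of 3 genes at least 2-fold lower, where 5.26% of 14465 genes were (5.36% higher, 10.6% either way, median 0.02). Both comparisons use the same Trp53 loss array. Pik3ca/Trp53 set directly against Apc/Trp53 was 1.26-fold lower for Msln (-0.33), at least 4.76-fold lower for Upk3b and 1.62-fold higher for C3 (0.70). Here 1 gene was at least 2-fold lower, where 6.89% of 14444 genes were (8.15% higher, 15% either way, median 0.03). That gene was Upk3b, at -2.84 as measured and -0.76 with normexp, which left 0 genes at least 2-fold lower.

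The 2 tumour-derived cultures differed from their sources in opposite directions for Msln and Upk3b. In tumour-derived Pik3ca/Trp53, Msln was 3.55-fold higher than in Pik3ca/Trp53 (1.83) and Upk3b at least 2.17-fold higher, while C3 was 1.32-fold lower (-0.40). Thus 2 of 3 genes were at least 2-fold higher, where 14.1% of 14727 genes were and 11.3% were at least 2-fold lower (median -0.09). The Upk3b difference rests on a signal near background: it was 0.29 with normexp, on the log2 scale, against 1.71 here. In tumour-derived Apc/Trp53, Msln was 5.46-fold lower than in Apc/Trp53 (-2.45), Upk3b at least 12.5-fold lower and C3 4.18-fold lower (-2.06, SD 0.10 between probes). The Upk3b log2 difference was -4.47 as measured and -1.19 with normexp. All 3 measured genes were at least 2-fold lower, where 8.04% of 14892 genes were and 11.3% were at least 2-fold higher (median -0.03). The differences to source, Pik3ca minus Apc, were apart by 4.28 log2 units for Msln, by 6.18 for Upk3b with its dim signals as measured, and by 1.67 for C3. No test of these is possible with 1 array a group.

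Between the 2 tumour-derived cultures, which lay in the same slide row but in different columns, all 3 measured genes were higher with Pik3ca. Msln was 15.4-fold higher in tumour-derived Pik3ca/Trp53 than in tumour-derived Apc/Trp53 (3.95), Upk3b at least 5.70-fold and C3 5.15-fold (2.36). For Upk3b the log2 difference was 3.34 as measured and 0.72, under 2-fold, with normexp. At least 2-fold higher were 16.7% of 15292 genes, and 15.9% were at least 2-fold lower (32.6% either way, median -0.01). Against the control, Msln was 1.11-fold lower in tumour-derived Pik3ca/Trp53, 3.93-fold lower in Pik3ca/Trp53, 17.0-fold lower in tumour-derived Apc/Trp53, 3.12-fold lower in Apc/Trp53 and 1.75-fold lower in Trp53 loss. Upk3b was at least 13.9-fold below the control in Pik3ca/Trp53, at least 36.4-fold in tumour-derived Apc/Trp53 and 2.91-fold in Apc/Trp53. These bounds were not checked with normexp, which made other Upk3b differences with a dim array smaller. Pik3ca/Trp53 and Apc/Trp53 lay in another slide row than the control, and tumour-derived Apc/Trp53 in another column. C3 was 4.15-fold below the control in tumour-derived Apc/Trp53 and between 1.01-fold and 1.64-fold above it in the other 4 cultures.

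**Figure D2:**
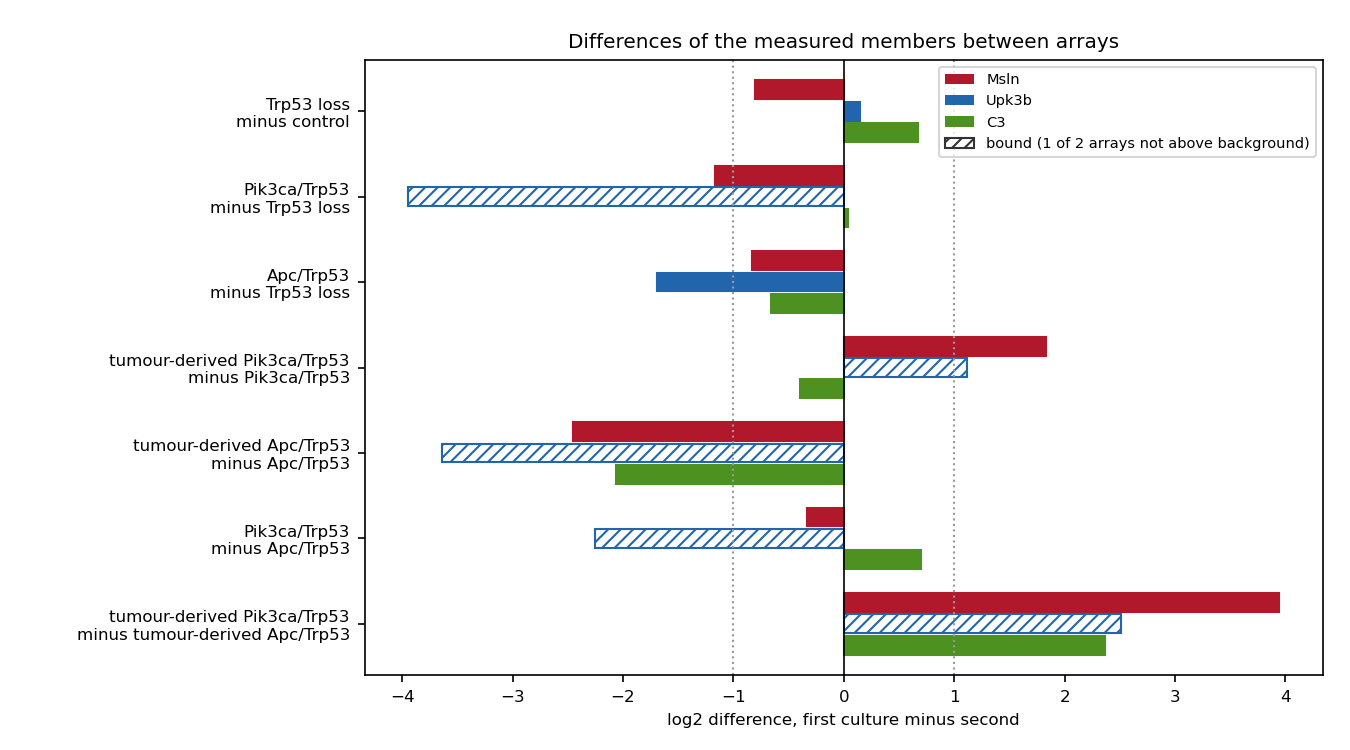
Log2 differences of Msln, Upk3b and C3 in the 7 comparisons, the first culture named minus the second. Hatched bars are bounds, where 1 of the 2 arrays was not well above background, and dotted lines mark 2-fold. Msln was at 1.83 in tumour-derived Pik3ca/Trp53 minus its source and at -2.45 in tumour-derived Apc/Trp53 minus its source.

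The other mesothelial markers gave a mixed picture. Of 20 mesothelial marker genes, Msln and Upk3b included, 11 were above background in tumour-derived Pik3ca/Trp53, 8 in Pik3ca/Trp53, 8 in tumour-derived Apc/Trp53, 8 in Apc/Trp53, 10 in Trp53 loss and 8 in the control. Lrrn4, the uroplakin Upk1b, the calcium-binding calretinin gene Calb2, the transcription factor gene Gata4 and the lubricin gene Prg4 were above background on no array. The 10 general epithelial markers, such as Epcam, Cdh1 and Krt8, were above background on all 6 arrays. Bnc1, Gpm6a, Cdh2, Rspo1 and Upk3b were above background in tumour-derived Pik3ca/Trp53 and not in its source, while Wt1 and Dpp4 showed the reverse. Cdh2 and Rspo1 were also above background in tumour-derived Apc/Trp53, and Pdpn was so on all 6 arrays. Msln and Upk3b are called by their gene names here, and whether mesothelial cells were present was not tested.

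The mesothelial markers that were measured did not follow 1 order. Wt1, a transcription factor gene of mesothelium and of the oviduct, was at 1.72 in Pik3ca/Trp53 and -0.11 in Trp53 loss and not above background elsewhere. Trp53 loss exceeded the control by at least 27.5-fold for Wt1, which was in turn at least 76.7-fold lower in tumour-derived Pik3ca/Trp53 than in its source. Pdpn, which encodes the surface glycoprotein podoplanin, was at 3.07 in tumour-derived Pik3ca/Trp53, -1.53 in Pik3ca/Trp53, 2.02 in tumour-derived Apc/Trp53, 1.24 in Apc/Trp53, 1.39 in Trp53 loss and -1.25 in the control. Pdpn was thus low in the control and in Pik3ca/Trp53 and highest in tumour-derived Pik3ca/Trp53, where it was 24.3-fold above the source. Bnc1, a zinc finger factor gene, and Gpm6a, a membrane glycoprotein gene, were above background in tumour-derived Pik3ca/Trp53 alone, at -2.07 and -2.88. N-cadherin (Cdh2) and Rspo1, which encodes a Wnt agonist that the medium also supplies as protein, were above background in the 2 tumour-derived cultures alone. Cdh2 was 3.9-fold and Rspo1 4.53-fold higher in tumour-derived Pik3ca/Trp53 than in tumour-derived Apc/Trp53.

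Other markers of the list gave other orders. Efemp1, which encodes the matrix protein fibulin-3, was at -1.14 in tumour-derived Pik3ca/Trp53, -0.08 in Pik3ca/Trp53, -2.88 in tumour-derived Apc/Trp53, -0.72 in Apc/Trp53, 1.5 in Trp53 loss and 1.25 in the control. Aldh1a2, the retinoic acid synthesis enzyme gene, was above background in Apc/Trp53 (-3.70) and Trp53 loss (-2.17) alone. Tbx18 was above background in the control alone, at -3.65. Dpp4, a surface peptidase gene, was at least 48.0-fold lower in tumour-derived Pik3ca/Trp53 than in its source. Its 2 probes differed by an SD of 3.9 log2 units in the comparison of the tumour-derived cultures. By counts, 7 of 13 measured mesothelial markers were at least 2-fold higher and 3 lower in tumour-derived Pik3ca/Trp53 than in its source, with a median of 1.71 (1.12 where bounds replace dim signals), where 14.1% of all genes were higher and 11.3% lower. In tumour-derived Apc/Trp53, 2 of 10 were higher and 4 lower than in the source, with a median of 0.41, where 11.3% of all genes were higher and 8.04% lower. Counts were 9 higher and 2 lower of 12 between the 2 tumour-derived cultures, with a median of 2.07, where 16.7% of all genes were higher and 15.9% lower. Msln and Upk3b are among these markers. A marker dim on 1 of 2 arrays enters a count only through the culture where it is high, so the filter sets its direction. Against the Pik3ca/Trp53 source, this held for Bnc1, Gpm6a, Cdh2, Rspo1 and Upk3b, counted higher, and Wt1 and Dpp4, counted lower. With both arrays above background, only Msln and Pdpn were at least 2-fold higher there, and Efemp1 lower. Against the Apc/Trp53 source, it held for Cdh2 and Rspo1, counted higher, and Aldh1a2 and Upk3b, counted lower. Bnc2 was at least 8.86-fold higher and Podxl 4.65-fold lower in tumour-derived Pik3ca/Trp53 than in tumour-derived Apc/Trp53, and Nkain4 was 2.06-fold higher in Pik3ca/Trp53 than in Trp53 loss.

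**Figure D3:**
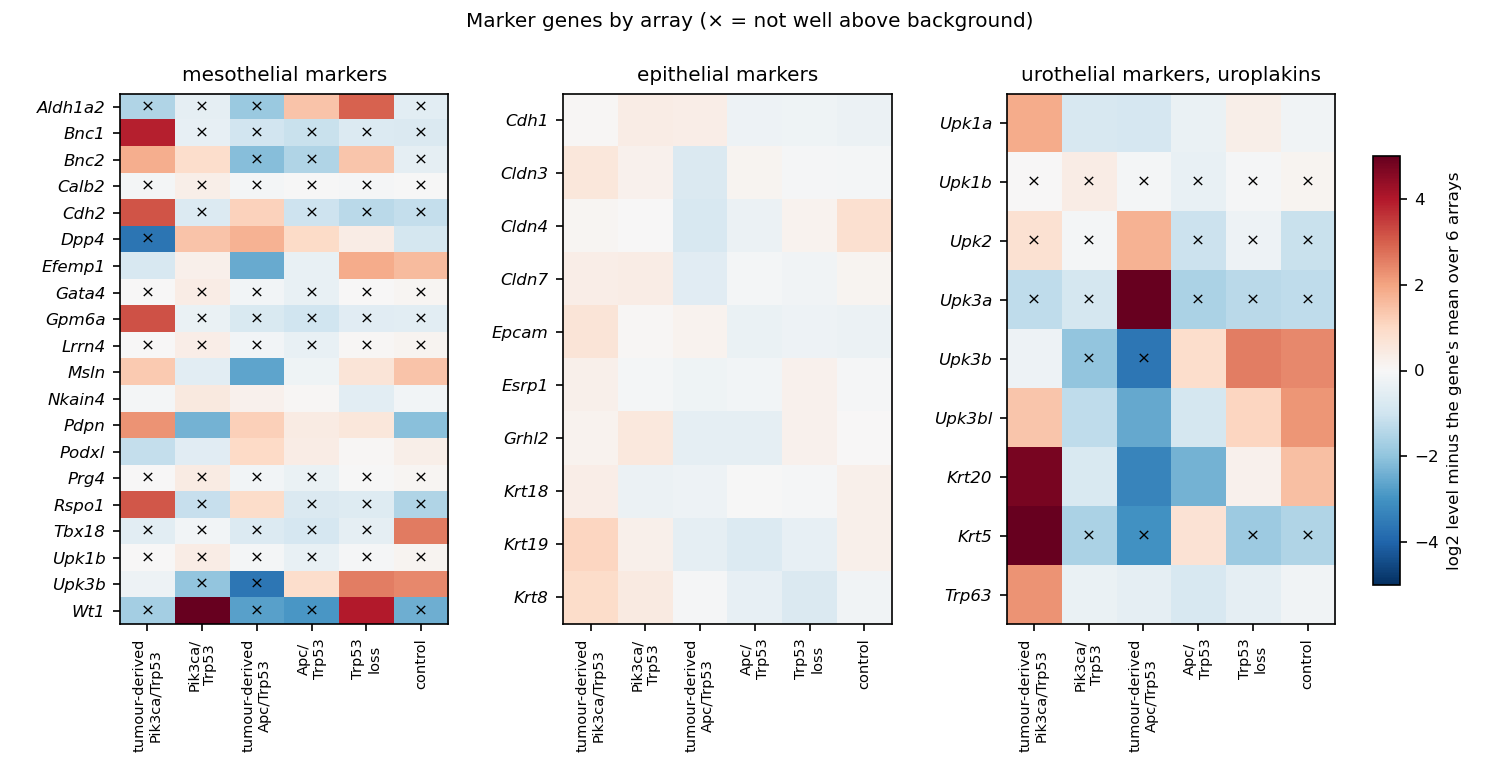
Log2 level of each marker gene on each array minus the gene's mean over the 6 arrays, for mesothelial, epithelial and urothelial markers with the uroplakins. Red is above and blue below the gene's mean, the colour is full at 5 log2 units, and a cross marks a gene not well above background on that array. The 10 epithelial markers have no cross, while Lrrn4, Calb2, Gata4, Prg4 and Upk1b have 6 crosses each.

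Of the mesothelin family, Mslnl, Strc and Otoa, the last 2 known from the inner ear, were above background on no array. Of the LRRN family with Lrrn4cl, Lrrn2 alone passed the background limit, and in the control only. The uroplakins split by member. Upk3bl, the gene of the uroplakin 3b-like protein, was at 3.26 in tumour-derived Pik3ca/Trp53, 0.60 in Pik3ca/Trp53, -0.65 in tumour-derived Apc/Trp53, 1.01 in Apc/Trp53, 2.98 in Trp53 loss and 4.11 in the control. The control was highest and tumour-derived Apc/Trp53 lowest, as for Msln. Upk3bl was 6.33-fold higher in tumour-derived Pik3ca/Trp53 and 3.18-fold lower in tumour-derived Apc/Trp53 than in their sources, with SDs of 0.05 and 0.09 between its 2 probes. Upk1a was at 3.79 in tumour-derived Pik3ca/Trp53 and between 1.07 and 2.20 on the other 5 arrays. Upk3a was at 1.11 in tumour-derived Apc/Trp53, at least 67.6-fold above its source, and not above background on the other 5. Upk2 was above background in tumour-derived Apc/Trp53 alone, at -3.98. Of the 5 uroplakins measured in tumour-derived Apc/Trp53 against its source, 2 were thus at least 2-fold higher and 2 lower, beside 11.3% and 8.04% of all genes.

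Of the other urothelial and squamous markers, Krt20 and Krt5 were high in tumour-derived Pik3ca/Trp53. Upk1b, Upk2 and Upk3a were not above background in that culture. The keratin gene Krt20 was at 5.80 in tumour-derived Pik3ca/Trp53, 0.30 in Pik3ca/Trp53, -2.26 in tumour-derived Apc/Trp53, -1.30 in Apc/Trp53, 1.27 in Trp53 loss and 2.55 in the control. The basal keratin gene Krt5 was at 3.49 in tumour-derived Pik3ca/Trp53, at least 246-fold above the source. The mean over 2 probes of the basal cell factor gene Trp63 was at least 3.08-fold higher than in the source. These probes differed by an SD of 3.86 log2 units, more than their mean difference of 2.60, so no direction is read for Trp63. The 7 urothelial markers had a summed signal, in units of the array's 75th percentile, of 81.7 in tumour-derived Pik3ca/Trp53. It was 3.65 to 9.45 on the other arrays. Krt20, at 5.80, made most of the sum in tumour-derived Pik3ca/Trp53. The part of these markers in the Msln and Upk3b differences was not tested.

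Muc16 itself has no value here, so its relatives are described. Muc1, a transmembrane mucin gene of most glandular epithelia, was between 3.86 and 4.95 on all 6 arrays. Muc4 and Muc20 were also above background on every array. Muc4 was at 0.05 in tumour-derived Pik3ca/Trp53, 0.96 in Pik3ca/Trp53, -1.19 in tumour-derived Apc/Trp53, 0.22 in Apc/Trp53, 0.99 in Trp53 loss and 0.65 in the control. It was 2.66-fold lower in tumour-derived Apc/Trp53 than in the source. Muc15 was above background in tumour-derived Pik3ca/Trp53 alone, at least 21.3-fold over the source, with an SD of 2.85 log2 units between 2 probes. Muc13 was above background in Trp53 loss and the control alone. Of the transmembrane mucins measured, 1 of 4 was at least 2-fold higher and 1 lower in tumour-derived Pik3ca/Trp53, and 0 of 3 higher and 1 lower in tumour-derived Apc/Trp53, each against its source. The shares over all genes were 14.1% higher and 11.3% lower in the first comparison, and 11.3% higher and 8.04% lower in the second. Among secreted mucins, Muc5b was 2.87-fold higher in tumour-derived Pik3ca/Trp53 and 2.07-fold lower in tumour-derived Apc/Trp53 than in the sources. Muc2 went the other way, 2.71-fold lower and 3.08-fold higher. Muc5ac was at least 2.27-fold higher in tumour-derived Pik3ca/Trp53 than in its source. Ovgp1, which encodes the oviduct glycoprotein oviductin, was at 2.47 in tumour-derived Pik3ca/Trp53, 2.84 in Pik3ca/Trp53, 4.09 in tumour-derived Apc/Trp53, 2.96 in Apc/Trp53, 1.31 in Trp53 loss and 3.70 in the control.

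The genes that process or bind mesothelin and Muc16 were above background on all arrays, and each spanned less over the arrays than Msln. These 9 genes include the protease gene Furin, the shedding protease gene Adam17, the lipid anchor transfer genes Pigk and Gpaa1, and the galectin genes Lgals1 and Lgals3. None of the 9 was at least 2-fold apart between either tumour-derived culture and its source, where 25.4% and 19.4% of all genes were. Lgals3 was at 5.62 in tumour-derived Pik3ca/Trp53, 4.96 in Pik3ca/Trp53, 3.22 in tumour-derived Apc/Trp53, 3.81 in Apc/Trp53, 4.90 in Trp53 loss and 5.53 in the control. It was 5.27-fold higher in tumour-derived Pik3ca/Trp53 than in tumour-derived Apc/Trp53, and Furin was 2.0-fold higher. Lgals1 was 2.35-fold higher in Pik3ca/Trp53 and 2.23-fold higher in Apc/Trp53 than in Trp53 loss.

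Around C3, 14 of 22 complement component genes were above background on at least 1 array. Cfb, which encodes the factor that joins C3 in the alternative pathway convertase, was at 3.87 in tumour-derived Pik3ca/Trp53, 2.80 in Pik3ca/Trp53, 1.44 in tumour-derived Apc/Trp53, 2.29 in Apc/Trp53, 1.51 in Trp53 loss and 1.92 in the control. C2, its classical pathway counterpart, was at 0.34 in tumour-derived Pik3ca/Trp53 and between -3.51 and -3.05 on the other 5 arrays. C1s1, a gene of the C1s protease, was at -0.08 in tumour-derived Pik3ca/Trp53, -2.30 in Pik3ca/Trp53, -1.67 in tumour-derived Apc/Trp53, -2.26 in Apc/Trp53, -3.62 in Trp53 loss and -3.52 in the control. The C5 gene Hc, C8a, C8b, C1qa, C1qc, Cfd, Mbl1 and Mbl2 were above background on no array. Of the components measured, 5 of 13 were at least 2-fold higher and 0 lower in tumour-derived Pik3ca/Trp53 than in its source, with a median of 0.60, where 14.1% and 11.3% of all genes were. In tumour-derived Apc/Trp53, 2 of 13 were higher and 1, C3, was lower than in the source, with a median of 0.28, where 11.3% and 8.04% of all genes were. Masp2 and C6, at least 2.86-fold and at least 2.04-fold, were the higher ones there. Neither was above background in the source, so both were counted only through the culture where they were high. Masp2 rested on 1 probe there. In tumour-derived Pik3ca/Trp53 minus its source, its 2 probes differed by an SD of 3.51 log2 units. In Pik3ca/Trp53 5 of 12 were higher and 0 lower than in Trp53 loss, and in Apc/Trp53 3 of 11 were higher and 0 lower, with C4b, C1s1 and C9 higher in both. Over all genes 9.72% were higher and 8.02% lower in the Pik3ca/Trp53 comparison, and 5.36% and 5.26% in that of Apc/Trp53. With normexp the higher counts were 3 in tumour-derived Pik3ca/Trp53, 0 in tumour-derived Apc/Trp53, 1 in Pik3ca/Trp53 and 0 in Apc/Trp53. Masp1, the gene of a lectin pathway protease, was at least 2.67-fold higher in tumour-derived Pik3ca/Trp53 than in its source.

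Some complement regulators differed between a tumour-derived culture and its source, in both directions. Of 7 measured, 2 were at least 2-fold higher and 2 lower in tumour-derived Pik3ca/Trp53 than in its source. Over all genes, 14.1% were higher and 11.3% lower in that comparison. In tumour-derived Apc/Trp53, 1 of 7 was higher and 1 lower than in the source, where 11.3% and 8.04% of all genes were. Cfi, the gene of the protease that cuts activated C3, was 4.02-fold lower in tumour-derived Pik3ca/Trp53 than in its source. C4bp, the gene of a C4b-binding regulator, was at -1.39 in tumour-derived Pik3ca/Trp53, 1.51 in Pik3ca/Trp53, 0.25 in tumour-derived Apc/Trp53, 1.37 in Apc/Trp53, 0.04 in Trp53 loss and 1.57 in the control. It was 7.47-fold lower in tumour-derived Pik3ca/Trp53 than in its source, while Serping1, the C1 inhibitor gene, was 2.38-fold higher. Clu, which encodes clusterin, was higher in both tumour-derived cultures than in the sources, 4.53-fold with Pik3ca and 9.52-fold with Apc. It was 10.1-fold lower in Apc/Trp53 than in Trp53 loss. Cd55, whose membrane protein takes convertases apart, was at 1.2 in tumour-derived Pik3ca/Trp53 and between 1.83 and 3.68 elsewhere, highest in the control. The anaphylatoxin receptor genes C3ar1 and C5ar1 were above background on no array, and C5ar2 was 2.08-fold higher in tumour-derived Apc/Trp53 than in its source.

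**Figure D4:**
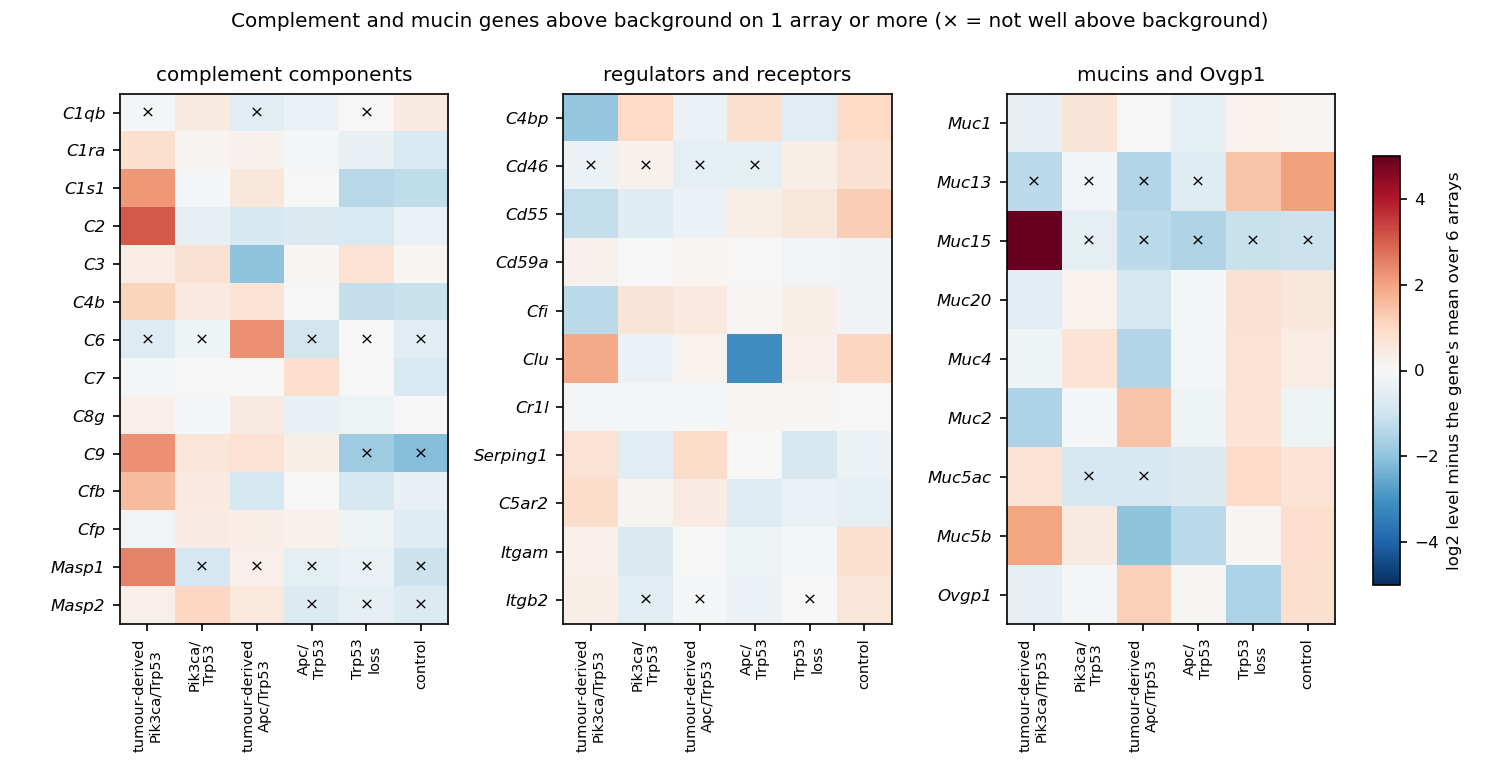
Log2 level of each complement and mucin gene on each array minus the gene's mean over the 6 arrays, for genes above background on at least 1 array. Red is above and blue below the gene's mean, the colour is full at 5 log2 units, and a cross marks a gene not well above background on that array. C3 is lowest in tumour-derived Apc/Trp53, at 5.46.

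Among markers of secretory oviduct cells, Krt7 differed between the cultures in the same directions as Msln, while others did not. Krt7, a keratin gene of simple epithelia, was at 5.36 in tumour-derived Pik3ca/Trp53, 3.76 in Pik3ca/Trp53, 3.08 in tumour-derived Apc/Trp53, 4.47 in Apc/Trp53, 5.42 in Trp53 loss and 5.94 in the control. It was 3.02-fold higher in tumour-derived Pik3ca/Trp53 and 2.63-fold lower in tumour-derived Apc/Trp53 than in the sources. Msx1, a homeobox gene, was at -3.96 in tumour-derived Pik3ca/Trp53 and 4.06 in its source, a 260-fold difference. It was at 5.24 in tumour-derived Apc/Trp53 and 3.92 in its source. Sox17 was 6.97-fold lower in tumour-derived Pik3ca/Trp53 than in its source. Pax8, the lineage factor gene of the Müllerian tract, was above background on all 6 arrays, between -0.97 and -0.02. Of the 8 secretory markers measured in tumour-derived Pik3ca/Trp53 against its source, 1 (Krt7) was at least 2-fold higher and 4 were lower, with a median of -1.31, where 14.1% and 11.3% of all genes were. In tumour-derived Apc/Trp53, 3 of 7 (Ovgp1, Msx1 and Lypd2) were higher than in the source and 1 (Krt7) was lower, with a median of 0.26, where 11.3% and 8.04% of all genes were. Of the general epithelial markers, Krt19 was 2.86-fold and Cldn3 2.46-fold higher in tumour-derived Pik3ca/Trp53 than in tumour-derived Apc/Trp53.

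Markers of other cell types also differed between the cultures. In these bulk samples fewer cells of a type and less RNA per cell cannot be told apart. Of 10 fibroblast markers, 4 were above background in tumour-derived Pik3ca/Trp53, 2 in tumour-derived Apc/Trp53, 1 in Pik3ca/Trp53 and 0 on the other 3 arrays. Their summed signal was 5.17 in tumour-derived Pik3ca/Trp53 and 0.108 to 0.198 elsewhere, and Postn, at 2.27, made most of it. In that culture the collagen gene Col1a1 was at least 3.41-fold higher than in tumour-derived Apc/Trp53, and Col1a2 at least 2.35-fold higher than in the source. Pdgfra was at least 4.04-fold higher in Pik3ca/Trp53 than in Trp53 loss, and Pdgfrb at least 1.84-fold higher in tumour-derived Apc/Trp53 than in its source. The collagen Col3a1 and the proteoglycans Dcn and Lum were above background on no array. Of 10 leukocyte markers, 5 or 6 were above background on each array, and their summed signal was 1.63 in tumour-derived Apc/Trp53, 4.15 to 10.6 on the 4 others and 13.7 in the control. Cd68, at -0.54 in tumour-derived Apc/Trp53 and 1.64 in Apc/Trp53, carried much of it. Laptm5 was 9.12-fold lower in Trp53 loss than in the control and at least 7.32-fold lower in tumour-derived Apc/Trp53 than in its source. The macrophage genes Adgre1 and Tyrobp were above background on no array, and Ptprc, the common leukocyte antigen gene, in tumour-derived Apc/Trp53 alone. Endothelial markers summed to 0.396 to 1.63, with 2 to 4 of 8 above background. The VEGF receptor gene Kdr was 8.46-fold higher in Apc/Trp53 than in Trp53 loss. Set against Apc/Trp53, Kdr in Pik3ca/Trp53 was lower by at least 25.1-fold. Cdh5 was 5.34-fold lower in tumour-derived Apc/Trp53 than in its source. The part of these markers in the Msln, Upk3b and C3 differences was not tested.

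The genes whose levels followed those of Msln most closely were found among 7001 genes above background on at least 3 arrays with a span of at least 1 log2 unit. Likeness is Pearson's r over the 6 log2 values. These points share 1 slide, and 4 of them form 2 pairs of a culture and its source, so r is a description. Signals not well above background enter r as measured. The closest was Sphk1, a sphingosine kinase gene, with an r of 0.998. Its level was 4.31 in tumour-derived Pik3ca/Trp53, 2.86 in Pik3ca/Trp53, 1.43 in tumour-derived Apc/Trp53, 3.23 in Apc/Trp53, 3.9 in Trp53 loss and 4.57 in the control. Wscd2 and Csf3, which encodes the granulocyte growth factor, followed at 0.996 each, then Dusp5, a phosphatase gene that acts on ERK, also at 0.996, and Acot10 at 0.995. Of these 5 genes Dusp5 was above background on 3 arrays only, so its r rests in part on values that have no order, and the other 4 were above background on all 6. With r above 0.9 there were 338 genes, so a high r was common. Upk3b had an r of 0.82 with Msln and C3 had 0.76.

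For Upk3b, 2 of the 6 values behind each r are the dim ones, -5.04 in Pik3ca/Trp53 and -6.67 in tumour-derived Apc/Trp53. With that limit Upk3b was closest to the predicted gene Gm46404 (0.993), the stress kinase gene Plk3 (0.989), the chloride cotransporter gene Slc12a2 (0.987), the anion transporter gene Slco4a1 (0.986) and the adenosine receptor gene Adora1 (0.985), and 142 genes were above 0.9. C3 was closest to Arl15, Clic5, Ell2, Pgm2l1 and Isca1, with r of 0.990, 0.990, 0.989, 0.989 and 0.988, and 146 genes were above 0.9. Each of these 5 was lowest in tumour-derived Apc/Trp53. The r between Upk3b and C3 was 0.61.

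**Figure D5:**
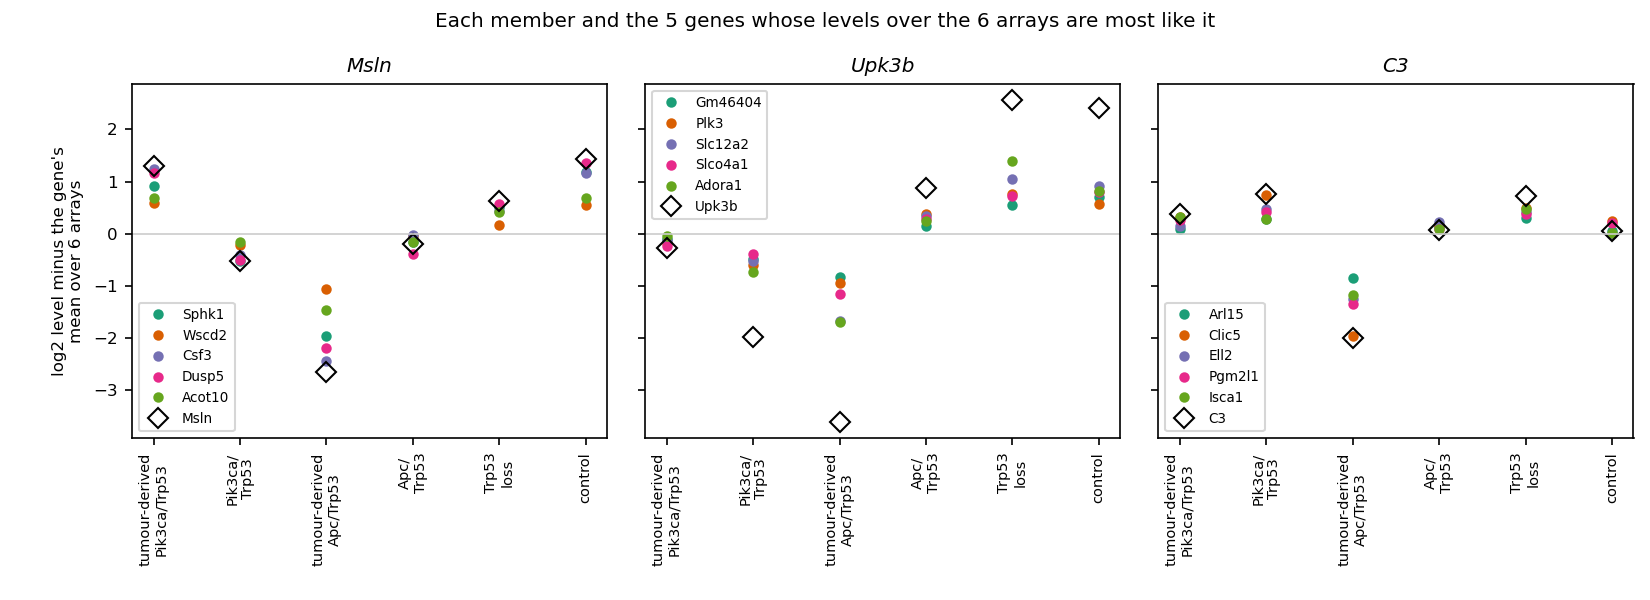
Msln, Upk3b and C3 (open diamonds) with the 5 genes most like each (dots), as log2 level minus the gene's mean over the 6 arrays. The genes beside Msln are low in tumour-derived Apc/Trp53 and high in tumour-derived Pik3ca/Trp53 and the control, and the r values are 0.995 to 0.998.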

How the data were processed

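Members and gene lists were chosen with earlier results of these data known, as was the rule that names the 2 largest differences each way in each list of each comparison, the members' families and the 5 most alike genes. Per the file headers, the deposited intensity of a spot was made with background subtraction by Feature Extraction (Agilent, version 11.0.1.1, also named in the submitters' processing notes), with no scaling between arrays. A deposited table of log2 values covers 2047 probes, with column medians of -0.05 in tumour-derived Pik3ca/Trp53, 0.15 in Pik3ca/Trp53, -0.20 in tumour-derived Apc/Trp53, -0.32 in Apc/Trp53, -0.02 in Trp53 loss and 0.03 in the control. Its differences equal those of the log2 intensity up to a constant (slope of 1), and its centring stays unknown.

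Control and outlier-flagged spots were left out. Levels are log2 intensity minus the 75th percentile of the array's remaining spots. Probes were named by RefSeq accession. A gene's difference is the mean over those of its named probes that pass the background flag on 1 or both arrays. Where 1 array was dim, "at least" gives the fold after raising the dim signal to that array's lowest level well above background. Such a bound holds for this background correction only, and normexp gave Upk3b differences smaller than it. Counts used signals as measured, at a log2 difference of 1, so a counted gene can have a bound under 2-fold. In every list and over all genes, a gene dim on 1 array was counted only through the culture where it was high. A list level sums, over genes, the scaled linear signal averaged on the log2 scale over all named probes. With 1 array a group there was no test. There were 7 comparisons, 17 lists and 8 alternatives (50th percentile scaling, quantile normalization, normexp background, 2 filters, brightest probe, outlier spots kept, deposited table). Normexp used median spot signals, with an offset of 50, because the files hold no mean signal. On simulated data all shifted genes were recovered. The shifts were all larger than 2-fold and the added noise was small, so this checked the code only. It says nothing of differences between cultures or of dim signals. Tools were matplotlib 3.10.9, pandas 2.3.3, numpy 2.4.6, Python 3.11.15, limma 3.58.1 and R 4.3.3.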

Additional observations from a re-analysis of the deposited data

Results flagged for a closer look

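Of 77 list genes measured in both comparisons of a tumour-derived culture with its source, 10 (13%) were at least 2-fold apart in opposite directions, bounds included, against 4.47% (623) of all 13933 genes. The lists and genes were picked with these values in view, so nothing is read from the gap. Each culture had 1 array, so the difference between the pairs was not tested, and dim signals enter as measured. In the pairs tumour-derived Pik3ca/Trp53 minus Pik3ca/Trp53 and tumour-derived Apc/Trp53 minus Apc/Trp53, the log2 differences were as follows. Msln was at 1.83 with Pik3ca and -2.45 with Apc. Upk3b was at 1.71 with Pik3ca and -4.47 with Apc, and its relative Upk3bl at 2.66 with Pik3ca and -1.67 with Apc. The keratin genes Krt7 and Krt5 were at 1.59 and 8.76 with Pik3ca, against -1.39 and -3.77 with Apc. Muc5b was at 1.52 with Pik3ca and -1.05 with Apc. The opposite order held for Muc2 (-1.44 with Pik3ca, 1.62 with Apc), Msx1 (-8.02 with Pik3ca, 1.32 with Apc), Lypd2 (-1.67 with Pik3ca, 1.89 with Apc) and Vwf (-2.44 with Pik3ca, 1.49 with Apc).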

How the results depend on the processing

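Under the 8 alternatives no difference of Msln, Upk3b or C3 past 2-fold changed sign. Msln stayed between -2.78 and -2.35 in tumour-derived Apc/Trp53 minus its source and between 1.70 and 1.98 in tumour-derived Pik3ca/Trp53 minus its source. C3 in Pik3ca/Trp53 minus Trp53 loss lay within spot error of 0, between -0.0035 and 0.10. With normexp background the Upk3b differences fell under 2-fold in tumour-derived Pik3ca/Trp53 minus its source (0.29), Pik3ca/Trp53 minus Apc/Trp53 (-0.76) and tumour-derived Pik3ca/Trp53 minus tumour-derived Apc/Trp53 (0.72), which left 1 gene higher in the first and 0 lower in the second. With probes above background on both arrays, which removes dim Upk3b values, 1 gene was lower in Pik3ca/Trp53 than in Trp53 loss, 1 higher in tumour-derived Pik3ca/Trp53 than in its source and 0 lower in Pik3ca/Trp53 than in Apc/Trp53. The deposited table holds Upk3b alone of the 5 genes, so 1 gene was called in each of Pik3ca/Trp53 minus Trp53 loss (lower), both tumour-derived minus source comparisons (higher with Pik3ca, lower with Apc) and tumour-derived Pik3ca/Trp53 minus tumour-derived Apc/Trp53 (higher). Over all genes, counts were 0.311 to 0.634 times those given with normexp, 0.489 to 0.738 with both arrays above background, 1.01 to 1.79 with no filter, 0.744 to 1.72 with 50th percentile scaling and 0.126 to 0.317 in the deposited table. With 50th percentile scaling the all-gene median became 0.22 in Trp53 loss minus the control, -0.22 and -0.36 in the Pik3ca and Apc tumour-derived minus source comparisons, and 0.19 between the tumour-derived cultures. The share of called genes that were higher became 56.4% in place of 44.9% in Trp53 loss minus the control and 37.9% in place of 58.4% in tumour-derived Apc/Trp53 minus its source. Of 1550 list counts under the alternatives, 196 moved by over 1.5 times, among them 46 of 208 with normexp and 47 of 198 with both arrays above background. In tumour-derived Pik3ca/Trp53 minus its source, the higher mesothelial count was 2 and the lower secretory count 2 with both arrays above background, in place of 7 and 4. In tumour-derived Apc/Trp53 minus its source, 50th percentile scaling gave 3 complement components lower in place of 1, 2 transmembrane mucins lower in place of 1, and 1 secretory marker higher in place of 3, and normexp gave 0 mesothelial markers higher in place of 2 and 1 uroplakin higher in place of 2. Between the tumour-derived cultures 5 mesothelial markers were higher with both arrays above background, in place of 9. No paired analysis was possible because each group has 1 array, and no array could be left out. Upk3b in Pik3ca/Trp53 and in tumour-derived Apc/Trp53 and Lrrn4 on all arrays were limited by background.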
